A study of Homo sapiens with 8 samples.

Results

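Secreted interleukins and haematopoietic growth factors were followed across 4 groups of MDA-MB-231 cells, a human breast cancer line that lacks oestrogen and progesterone receptors and looks mesenchymal. The set held 9 genes, chosen by symbol but with earlier results of these data known: IL1A, IL1B, IL6, LIF, IL11, IL24, CSF1, CSF2 and CSF3. They are 9 of the 25369 genes in the count table, and 6 of them (IL1A, IL1B, IL6, LIF, IL11 and CSF1) passed the filter on low counts and were tested among 14016 genes.

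The groups, of 2 libraries each, were SUN2KO, in which the SUN2 gene was knocked out, Kashlid, whose SUN2 misses residues 569 to 585, LBD, whose SUN2 misses residues 1 to 139, and WT, left unmodified. SUN2 is a protein of the inner nuclear membrane that joins nesprins in the outer membrane to the lamina. By the stated design, Kashlid takes away the link to Nesprin-2G and LBD the link to lamins. The labels name no drug or cytokine treatment in any group, and do not say whether the truncated forms were made in SUN2KO or in WT cells, how they were introduced, or whether a line is a single clone. Nor do they state that the 2 libraries of a group are separate cultures, and a p-value then covers no more than the spread between libraries, possibly a technical one.

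These cytokines fall into 4 families. IL6, LIF and IL11 bind receptors that share the signalling chain IL6ST and activate JAK kinases and STAT3. IL1A and IL1B are made as precursors without a classical signal peptide, act through IL1R1 and IL1RAP, and switch on NF-kB and the transcription of other cytokines, IL6 among them. CSF1, CSF2 and CSF3 drive the survival and growth of macrophages, granulocytes and their precursors, and IL24 belongs to the IL10 family. In breast tumours such factors can act on the tumour cells themselves, on bone cells and on myeloid cells.

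Depth was 16570099 to 18814795 counts per library. SUN2 transcript was 28 ± 3.29 CPM in SUN2KO, 36.3 ± 1.28 in Kashlid, 33.6 ± 1.49 in LBD and 82.7 ± 1.30 in WT (CPM, reads of a gene relative to the scaled size of its library, with the SD of n = 2), so all 3 modified groups stood below WT for the targeted gene itself. All 6 markers listed for MDA-MB-231 cells (VIM, CD44, AXL, CAV1, MSN and ZEB1) were present, at a summed 1330 to 1600 CPM per library. Of 6 markers listed as low or absent, ESR1, PGR and GATA3 averaged under 1 CPM, while ERBB2 averaged 52.4 CPM, EPCAM 5.26 and CDH1 1.015. Replicates differed beyond sampling noise in every group, with a chi-square per degree of freedom of 5.46 in Kashlid, 3.38 in LBD, 2.48 in SUN2KO and 2.57 in WT. The Kashlid libraries were the least alike pair, and results that rest on 1 of them are given with and without it.

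The bases just upstream of the transcription start are where several of these genes are known to be switched on, and they are shown for the 4 tested members that have an entry among RefSeq's promoters (LIF, CSF1 and CSF3 have none). Each run holds the 250 bases before the start, 5′ to 3′ on the strand of the gene, on GRCh38.p14. IL6 lies at chr7:22726950-22727199 on the + strand, IL11 at chr19:55370464-55370713 on the - strand, IL1A at chr2:112784494-112784743 on the - strand and IL1B at chr2:112836780-112837029 on the - strand. Capitals mark matches, on either strand, to 5 short motifs: AP-1 (TGAGTCA), CRE (TGACGTCA), C/EBP (TTGCNNAA), NF-kB (GGG, any 2 bases, TT, any base, CC) and STAT (TTCNNNGAA).
IL6: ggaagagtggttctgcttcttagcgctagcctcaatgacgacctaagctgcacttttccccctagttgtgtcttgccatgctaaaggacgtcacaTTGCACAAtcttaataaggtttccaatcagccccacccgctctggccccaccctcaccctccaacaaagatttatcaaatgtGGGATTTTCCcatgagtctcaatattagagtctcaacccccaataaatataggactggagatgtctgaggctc
IL11: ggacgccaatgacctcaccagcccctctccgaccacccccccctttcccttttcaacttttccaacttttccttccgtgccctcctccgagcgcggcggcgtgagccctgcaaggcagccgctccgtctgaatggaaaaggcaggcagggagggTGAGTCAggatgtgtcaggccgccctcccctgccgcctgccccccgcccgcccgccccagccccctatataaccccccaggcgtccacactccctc
IL1A: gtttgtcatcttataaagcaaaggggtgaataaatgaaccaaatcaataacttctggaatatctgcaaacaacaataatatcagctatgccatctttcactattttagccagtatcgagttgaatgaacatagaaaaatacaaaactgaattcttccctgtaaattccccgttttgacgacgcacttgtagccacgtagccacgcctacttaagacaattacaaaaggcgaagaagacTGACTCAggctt
IL1B: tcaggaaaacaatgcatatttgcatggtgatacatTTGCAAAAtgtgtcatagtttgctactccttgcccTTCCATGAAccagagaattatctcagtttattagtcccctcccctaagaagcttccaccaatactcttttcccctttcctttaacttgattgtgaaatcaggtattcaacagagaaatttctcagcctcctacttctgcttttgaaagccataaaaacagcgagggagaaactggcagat

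In the IL6 run the first capitals are a C/EBP match at positions -155 to -148 from the start and the second an NF-kB match at -73 to -64. The IL11 run holds an AP-1 match at -96 to -90, and the IL1A run one at -12 to -6, read on the opposite strand (TGACTCA). IL1A has another promoter entry, at chr2:112784401-112784650 and not printed, with 2 AP-1 matches at -55 to -49 and -105 to -99. The latter is the same stretch of bases as the match in the printed run. IL1B holds a C/EBP match at -215 to -208 and a STAT match at -180 to -172. Counting also CSF2 (chromosome 5, a STAT match at -190 to -182) and IL24, whose window held none of the 5, AP-1 was matched in 2 of 6 members with an entry, C/EBP in 2, NF-kB in 1, STAT in 2 and CRE in 0. Among all 35116 RefSeq promoters of the same length the shares were 4.2% for AP-1, 9.05% for C/EBP, 5.07% for NF-kB, 6.57% for STAT and 1.65% for CRE. These shares count promoter entries, whereas each member is counted once. No 2 matches overlapped in the printed runs. A match describes these letters only, and no binding was measured.

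Scaled to exon length so that genes can be compared, LIF was the most abundant transcript of the set, at a mean of 10.5 CPM per kb over the 8 libraries, ahead of IL11 at 6.52 and IL6 at 5.36. CSF1 followed at 1.16 CPM per kb, then IL1A at 0.849 and IL1B at 0.479. CSF2 (0.222), IL24 (0.0545) and CSF3 (0.00992 CPM per kb) were close to the limit of detection. The order of LIF, IL11 and IL6 held in the SUN2KO, LBD and WT means, whereas in Kashlid the spread of IL6 and IL11 between the 2 libraries was as large as the gap between genes. In cell line RNA of this kind, fewer cells making a cytokine and less of its RNA per cell cannot be told apart.

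**Figure D1:**
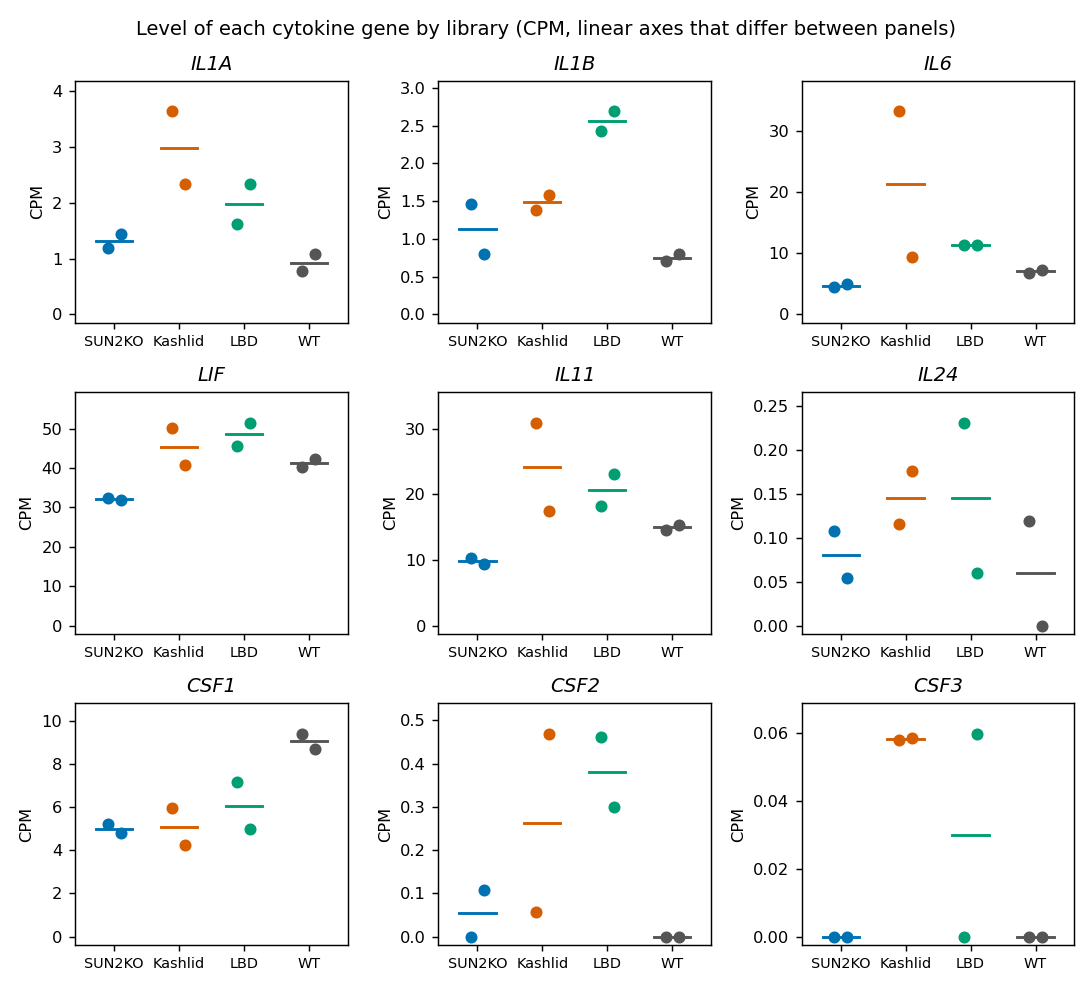
Level of each of the 9 cytokine genes in CPM (y axis, linear, own scale per panel) in the SUN2KO, Kashlid, LBD and WT libraries (x axis). Points are libraries and bars are means of 2. IL6 in Kashlid stands at 33.2 and 9.38 CPM, CSF1 is highest in the 2 WT libraries, and IL24, CSF2 and CSF3 stay under 0.5 CPM.

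Of the IL6ST-family ligands, LIF and IL11 fell in SUN2KO and all 3 stood higher in the truncation groups than in SUN2KO. IL6 (chromosome 7, 22766766 to 22771621 on hg19), the acute-phase cytokine, had 4.44 and 4.94 CPM in the SUN2KO libraries, 33.2 and 9.38 in Kashlid, 11.3 and 11.4 in LBD, and 6.71 and 7.33 in WT. Both SUN2KO libraries lay below both WT libraries, and all 4 truncation libraries lay above them. The largest value came from Kashlid replicate 1, at 574 counts against 160 in replicate 2. The log2 fold change over WT was -0.58 ± 0.39 (SE) in SUN2KO (adjusted p = 0.264, edgeR's quasi-likelihood test with Benjamini-Hochberg adjustment over all genes tested), 1.6 ± 0.33 in Kashlid (0.000488) and 0.69 ± 0.35 in LBD (0.127).

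The IL6 values over WT depended on the libraries and the filter. Without Kashlid replicate 1, the Kashlid value over WT was 0.42 (adjusted p = 0.0779, edgeR) and without replicate 2 it was 2.2. The same pair enters the spread that the fit shares between groups. With either Kashlid library left out, IL6 passed the test in SUN2KO (-0.58, adjusted p = 0.00727 without replicate 1 and 0.00461 without replicate 2) and in LBD (0.69, 0.000459 and 0.00021), and it also passed with only the 2 groups compared in the fit (0.0102 in SUN2KO and 0.00104 in LBD) and with all 8 libraries and no filter (0.00453 and 6.85e-05). In the authors' deposited table the adjusted p-values for IL6 were 0.126 in SUN2KO, 0.153 in Kashlid and 0.016 in LBD.

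Set against SUN2KO, IL6 rose in both truncation groups, by 2.18 ± 0.35 (log2) in Kashlid (adjusted p = 0.000114, edgeR) and by 1.27 ± 0.37 in LBD (0.0242). The LBD call was lost without any 1 of the SUN2KO or LBD libraries (adjusted p = 0.202 and 0.126 without SUN2KO replicate 1 and 2, 0.085 and 0.121 without LBD replicate 1 and 2) and with DESeq2 (0.243). Without Kashlid replicate 1 the Kashlid value over SUN2KO was 1.00 (0.000537), so it kept its call at a smaller size. LBD against Kashlid gave -0.91 ± 0.31 (0.125), with the LBD libraries lying between the 2 Kashlid libraries.

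IL11 (chromosome 19, 55875750 to 55881831), a cytokine studied for its part in bone metastasis of this cell line, moved in the same directions. It had 10.3 and 9.45 CPM in SUN2KO, 30.9 and 17.4 in Kashlid, 18.2 and 23.1 in LBD, and 14.6 and 15.3 in WT. The 2 SUN2KO libraries were the lowest of the 8 and the 4 truncation libraries all exceeded the WT pair. IL11 fell in SUN2KO, by 0.60 ± 0.20 on the log2 scale (adjusted p = 0.0214, edgeR), and rose in Kashlid (0.69 ± 0.18, 0.00338) and in LBD (0.46 ± 0.18, 0.0473).

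The IL11 calls against WT were not kept under every setting. In SUN2KO the size hardly moved, at -0.66 and -0.53 (log2) without SUN2KO replicate 1 and 2 and -0.63 and -0.57 without WT replicate 1 and 2, but the call was lost each time (adjusted p = 0.0786, 0.143, 0.057 and 0.101, edgeR), as it was with DESeq2 (0.172). The Kashlid value was 0.22 (0.253) without Kashlid replicate 1 and 1.05 without replicate 2, and DESeq2 gave an adjusted p of 0.0849. The LBD call was lost without LBD replicate 2 (0.29, adjusted p = 0.358), either WT library (0.167 and 0.123 without replicate 1 and 2) or either SUN2KO library (0.0701 and 0.0656), with the stricter filter (0.0594) and with DESeq2 (0.29). Against SUN2KO, where the difference was larger, IL11 rose by 1.29 ± 0.19 in Kashlid (4.25e-05) and by 1.06 ± 0.19 in LBD (0.000506), and both calls held under every setting tried. Without Kashlid replicate 1 the Kashlid value over SUN2KO was 0.82 (0.000387).

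LIF (chromosome 22, 30636436 to 30642840), known for holding mouse embryonic stem cells undifferentiated and for inducing SOCS3, had the smallest ratio of highest to lowest library among the tested members. Its levels were 32.3 and 31.9 CPM in SUN2KO, 50.05 and 40.8 in Kashlid, 45.6 and 51.5 in LBD, and 40.3 and 42.2 in WT. The SUN2KO pair was again the lowest, the LBD pair lay above WT, and the Kashlid pair overlapped WT. LIF fell in SUN2KO by 0.36 ± 0.09 on the log2 scale (adjusted p = 0.0044, edgeR), gave 0.14 ± 0.09 in Kashlid (0.24), and rose in LBD by 0.23 ± 0.09 (0.0467). The SUN2KO call held under every setting tried. The LBD call did not hold without LBD replicate 2 (0.15, adjusted p = 0.344), without WT replicate 1 or 2 (0.212 and 0.0946), without SUN2KO replicate 1 or 2 (0.0658 and 0.0611) or with DESeq2 (0.112). In Kashlid LIF passed only without Kashlid replicate 2 (0.28, adjusted p = 0.0181), and gave -0.02 (0.912) without replicate 1. Against SUN2KO it rose by 0.50 ± 0.09 in Kashlid (0.000602) and by 0.60 ± 0.09 in LBD (0.000108).

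The gap between the Kashlid libraries was shared by IL6 and IL11. Kashlid replicate 1 had 3.54 times the IL6 of replicate 2 and 1.78 times the IL11, which put IL6 at rank 5 and IL11 at rank 21 of 10866 genes with a mean of at least 5 CPM, by size of the log2 ratio. The genes beside them included CXCL8, an inflammatory chemokine, at rank 4 (1.94, log2 ratio of replicate 1 to 2), ATF3, a stress-induced transcription factor, at rank 6 (1.70) and NUPR1 at rank 8 (1.17), all chosen here after their values were seen. RPPH1 and RMRP, RNA components of processing ribonucleases, held ranks 1 and 2 at -5.70 and -5.14. LIF stood at rank 849 (1.23 times) and CSF1 at rank 227 (1.41 times). The part of this gap in the Kashlid results beyond the values without each library was not tested.

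**Figure D2:**
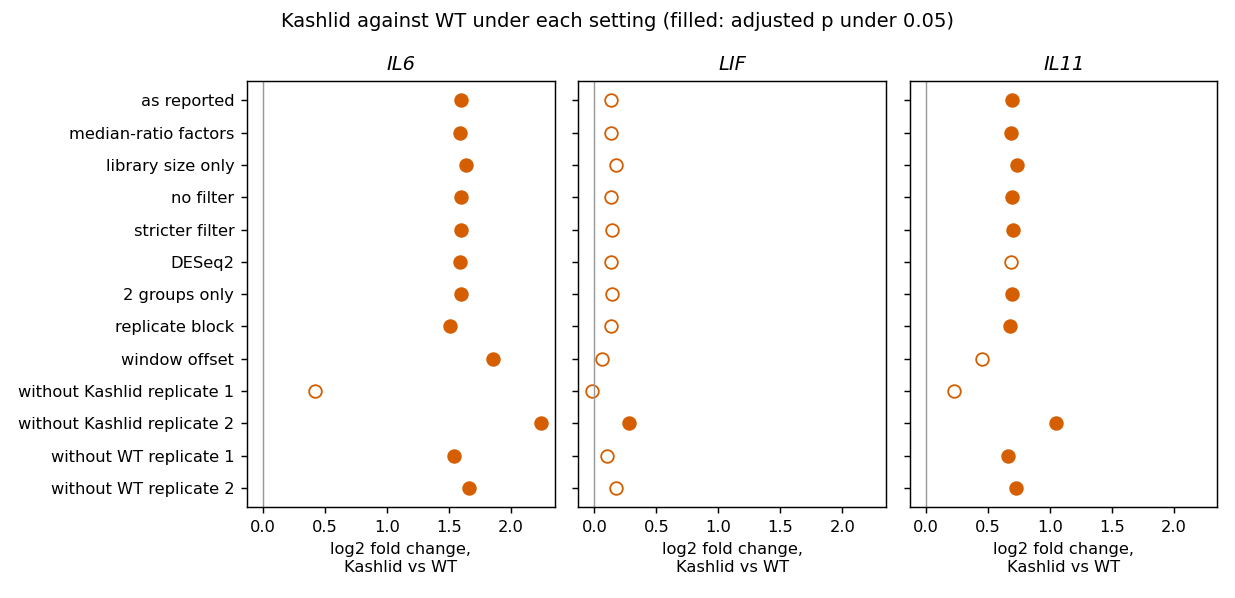
Log2 fold change of IL6, LIF and IL11 in Kashlid over WT (x axis) under each setting (y axis), with filled points where the adjusted p is under 0.05. IL6 ranges between 0.42 without Kashlid replicate 1 and 2.2 without replicate 2, and the IL11 and LIF values shift the same way.

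Over the 8 libraries, log2(CPM + 1) of IL6 and IL11 had a Pearson r of 0.944, LIF and IL11 of 0.946, and IL6 and LIF of 0.815. These are descriptions of 8 libraries that fall into 4 groups, with 1 Kashlid library extreme. The genes most like IL6 among 9778 with a mean of at least 10 CPM were PDE10A (r = 0.979) and CXCL8 (0.961). CXCL8 was also first for IL11 (0.986), followed by USP36 (0.981), and LIF was closest to SDC4 (0.994) and PTGER4 (0.986). CSF1 shared none of this, with r = -0.01 against IL6, 0.19 against LIF and 0.04 against IL11. IL1A had r = 0.829 against IL6, 0.576 against LIF and 0.756 against IL11, and IL1B 0.369, 0.539 and 0.487, so the likeness was not limited to the IL6ST-family ligands.

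The IL-1 genes, which sit side by side on chromosome 2 (IL1A at 113531492 to 113542971 and IL1B at 113587337 to 113594356 on hg19), were under 4 CPM in every library. IL1A rose over WT in both truncation groups and IL1B in LBD. IL1A, which acts as an alarmin when released from damaged cells, had 1.19 and 1.45 CPM in SUN2KO, 3.64 and 2.35 in Kashlid, 1.62 and 2.33 in LBD, and 0.772 and 1.08 in WT. All 6 modified libraries exceeded both WT libraries, with the Kashlid pair highest. These CPM stand for 13 to 63 counts per library. IL1A rose in Kashlid by 1.68 ± 0.36 (log2, adjusted p = 0.000774, edgeR) and in LBD by 1.08 ± 0.39 (0.0305), and gave 0.51 ± 0.41 in SUN2KO (0.355). The Kashlid call held under every setting that kept IL1A among the tested genes. The LBD call was lost without LBD replicate 2 (0.80, adjusted p = 0.224), without WT replicate 1 (0.181) or 2 (0.0542) and with DESeq2 (0.0923).

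IL1B, the form cut by caspase-1, had its highest level in LBD instead. It had 1.46 and 0.806 CPM in SUN2KO, 1.39 and 1.58 in Kashlid, 2.43 and 2.69 in LBD, and 0.713 and 0.795 in WT. The LBD libraries were the highest 2 of the 8, and the SUN2KO pair, which spanned 27 and 15 counts, overlapped the Kashlid pair. IL1B rose in LBD by 1.75 ± 0.38 (log2, adjusted p = 0.000902, edgeR) and gave 0.97 ± 0.41 in Kashlid (0.0604) and 0.58 ± 0.42 in SUN2KO (0.306). The LBD call over WT held under every setting that kept IL1B among the tested genes.

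Against SUN2KO, IL1A rose in Kashlid by 1.18 ± 0.34 (adjusted p = 0.0184, edgeR), a call lost without Kashlid replicate 1 (0.83, adjusted p = 0.211), without SUN2KO replicate 1 (0.153) or 2 (0.062) and with DESeq2 (0.0913). IL1B rose in LBD over SUN2KO by 1.17 ± 0.35 (0.0285), a call lost without SUN2KO replicate 2 (0.81, 0.263), LBD replicate 1 (0.0768) or 2 (0.17) and with DESeq2 (0.154). The other IL-1 comparison for each gene gave 0.58 ± 0.36 for IL1A in LBD (0.341) and 0.39 ± 0.38 for IL1B in Kashlid (0.529). Although IL1A was highest in Kashlid and IL1B in LBD, LBD against Kashlid gave -0.60 ± 0.32 for IL1A (0.367) and 0.78 ± 0.34 for IL1B (0.24), so neither difference between the truncations passed the test.

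CSF1 (chromosome 1, 110453233 to 110473616), the macrophage growth factor, was the tested member that was lower than WT in all 3 modified groups. It had 5.19 and 4.78 CPM in SUN2KO, 5.95 and 4.22 in Kashlid, 7.17 and 4.96 in LBD, and 9.39 and 8.69 in WT. The 6 modified libraries all lay below the WT pair and overlapped one another. CSF1 fell by 0.86 ± 0.20 (log2) in SUN2KO (adjusted p = 0.00197, edgeR), by 0.83 ± 0.20 in Kashlid (0.00214) and by 0.57 ± 0.20 in LBD (0.0252), which corresponds to 55.2%, 56.4% and 67.3% of the WT level. The SUN2KO and Kashlid calls held under every setting tried. The LBD value was -0.86 without LBD replicate 1, and its call was lost without LBD replicate 2 (-0.33, adjusted p = 0.288), without WT replicate 1 (0.132) or 2 (0.0669) and with DESeq2 (0.0897). Between the modified groups CSF1 gave 0.03 ± 0.21 in Kashlid over SUN2KO (0.952), 0.28 ± 0.21 in LBD over SUN2KO (0.437) and 0.25 ± 0.21 in LBD over Kashlid (0.597).

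CSF1R, the receptor for CSF1, also fell in all 3, to 4.04 CPM in SUN2KO, 4.19 in Kashlid and 4.88 in LBD, against 10.6 in WT. Its log2 fold changes were -1.38 ± 0.18 (adjusted p = 3.48e-06, edgeR), -1.33 ± 0.18 (3.86e-06) and -1.11 ± 0.17 (3.24e-05). CSF1R is also a marker of myeloid cells. The summed level of the 7 myeloid markers was 5.10 to 5.14 CPM in SUN2KO, 4.62 to 5.57 in Kashlid and 5.67 to 6.16 in LBD, against 11 to 12 in WT, and CSF1R made up most of it. The other 6 averaged under 1 CPM, CD163 and AIF1 had 0 counts in all libraries, and PTPRC averaged 0.182 CPM.

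CSF2 (chromosome 5, 131409485 to 131411863), which supports granulocytes and macrophages, was near the detection limit and failed the filter. Its counts were 0 and 2 in SUN2KO, 1 and 8 in Kashlid, 8 and 5 in LBD, and 0 and 0 in WT. The reads came mostly from the truncation groups, with 9 of 24 in Kashlid and 13 in LBD. With WT, which had 0 reads, set at a floor of 3 counts over the group, the CSF2 ratio over WT was 3.09 in Kashlid and 4.48 in LBD. The exact 95% counting intervals of the levels were 0.121 to 0.504 CPM in Kashlid, 0.205 to 0.659 in LBD and 0 to 0.106 in WT. Over SUN2KO the ratio was 4.98 in Kashlid (95% exact counting interval 1.03 to 47.3) and 7.23 in LBD (1.64 to 65.9). In the fit with no filter, LBD over WT had an adjusted p of 0.0217 and Kashlid over WT one of 0.0528 (edgeR). The intervals cover counting error only. The ratios at the floor leave out the counting error of the Kashlid and LBD reads, so they are not lower limits.

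CSF3 (chromosome 17, 38171614 to 38174066), the granulocyte growth factor, had 0 and 0 counts in SUN2KO, 1 and 1 in Kashlid, 0 and 1 in LBD, and 0 and 0 in WT. In WT the floor of 3 counts over both libraries corresponds to 0.086 CPM, so a level under that was not detectable at this depth. IL24 (chromosome 1, 207070788 to 207077484), an IL10-family cytokine, had 2 and 1 counts in SUN2KO, 2 and 3 in Kashlid, 4 and 1 in LBD, and 2 and 0 in WT, and the intervals of its ratios over WT ran between 0.421 and 27.0 in Kashlid and between 0.424 and 27.2 in LBD. Its end overlaps FAIM3 (207076631 to 207095378), and no source used here gives the strand setting of the counting, so these few reads may belong to either gene. No difference in CSF3 or IL24 was detectable at this depth.

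By comparison, 3 of the 6 tested members passed the test in SUN2KO against WT (LIF, IL11 and CSF1, all lower), where 36.7% of all tested genes passed in either direction, 17.5% higher and 19.1% lower. The median log2 fold change of the 6 was -0.47, beside 0.00 over all tested genes. In Kashlid against WT 4 of 6 passed (IL1A, IL6 and IL11 higher, CSF1 lower), beside 44.5% of all tested genes, 21.7% higher and 22.7% lower, with a median of 0.83 beside 0.01. In LBD against WT 5 of 6 passed (IL1A, IL1B, LIF and IL11 higher, CSF1 lower), beside 40% of all tested genes, 19% higher and 21% lower, with a median of 0.58 beside 0.00. The 3 comparisons share the WT libraries, and the members were chosen with earlier results of these data known. DESeq2 called 2, 3 and 1 of the 6 in SUN2KO, Kashlid and LBD.

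Between the modified groups the background of calls was lower. In Kashlid against SUN2KO 4 of 6 passed, all higher (IL1A, IL6, LIF and IL11), beside 18% of all tested genes in either direction, 8.92% higher and 9.13% lower. In LBD against SUN2KO 4 of 6 passed, all higher (IL1B, IL6, LIF and IL11), beside 13.5% of all tested genes, 6.69% higher and 6.79% lower. The medians of the 6 were 0.84 and 0.83, beside 0.01 and -0.004 over all tested genes, and DESeq2 called 3 and 2 members. In LBD against Kashlid 0 of 6 passed by edgeR and 0 by DESeq2, with 2 at an unadjusted p under 0.05 (IL1B and IL6), beside 2.91% of all tested genes, 1.63% higher and 1.28% lower. Without Kashlid replicate 1 the direction turned for IL6 (0.28, adjusted p = 0.53) and for IL11 (0.25, 0.487). IL6 passed without Kashlid replicate 2 (-1.55, adjusted p = 2.53e-08) and with no filter (1.78e-08), and IL11 passed without Kashlid replicate 2 (-0.58, 0.00684).

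**Figure D3:**
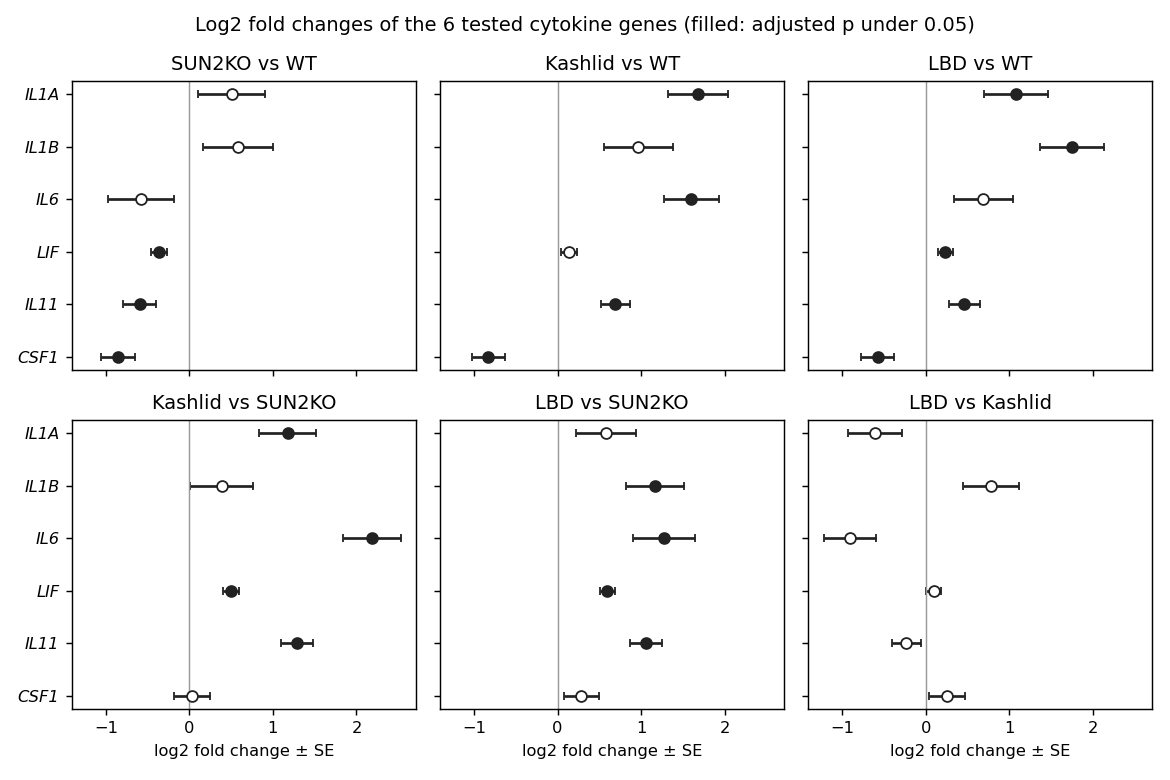
Log2 fold change with its SE (x axis) of the 6 tested cytokine genes (y axis) in each of the 6 comparisons, filled where the adjusted p is under 0.05. IL6, LIF and IL11 lie below 0 in SUN2KO over WT and above 0 in both truncation groups over SUN2KO, and CSF1 lies below 0 in all 3 comparisons with WT.

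Receptor transcripts of the IL6ST family were present in all groups. IL6ST, the shared chain, averaged 165.8 CPM in SUN2KO, 194.9 in Kashlid, 188.4 in LBD and 181 in WT, and over all libraries OSMR averaged 267.7 CPM and LIFR 153.2 CPM. IL6R averaged 11.6 CPM and IL11RA 1.93 CPM. Of 16 receptors and decoys, 11 were tested. In SUN2KO against WT 0 rose and 3 fell, in Kashlid 1 rose and 2 fell, and in LBD 0 rose and 2 fell, which is 27.3%, 27.3% and 18.2% of the list beside 36.7%, 44.5% and 40% of all tested genes. LIFR, a receptor chain for LIF though not for LIF alone, fell in both truncation groups. It averaged 137.8 CPM in Kashlid and 123.4 in LBD, against 172.4 in WT, with log2 fold changes of -0.32 ± 0.06 (adjusted p = 0.000361, edgeR) and -0.48 ± 0.07 (5.44e-06). The Kashlid value was -0.21 without Kashlid replicate 2, and LIFR gave 0.06 ± 0.06 in SUN2KO (0.515).

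OSMR, the oncostatin M receptor, fell in SUN2KO by 0.24 ± 0.05 (log2, adjusted p = 0.00119, and 0.0507 at a size of -0.14 with its window median taken out), and IL1RAP, the accessory chain for IL-1, by 0.39 ± 0.10 (0.00426, and 0.0965 without SUN2KO replicate 2). IL6ST rose in Kashlid over SUN2KO by 0.23 ± 0.07 (adjusted p = 0.0149), or 0.36 without Kashlid replicate 2, a call lost without Kashlid replicate 1 (0.309) and without SUN2KO replicate 1 (0.129) or 2 (0.0847). IL1R1 was low at 1.55 CPM on average, and IL1RN, the natural antagonist of IL-1, had 2 reads in all 8 libraries. CSF2RB, the signalling chain for CSF2, had 1 read in total, CSF3R had at most 3 per library, and CSF2RA averaged 7.69 CPM. Of the chains that bind IL24, IL20RB averaged 96.0 CPM, IL20RA 0.158 and IL22RA1 0.758 CPM.

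Related cytokines outside the 9 mostly failed the filter on low counts, with 9 of 30 tested. In SUN2KO against WT 2 rose and 3 fell, and in Kashlid and in LBD 1 rose and 4 fell, 55.6% of the list each time, beside 36.7%, 44.5% and 40% of all tested genes. IL15, a growth factor for T and NK cells, fell in all 3, to 6.33 CPM in SUN2KO, 8.38 in Kashlid and 7.69 in LBD, against 14.9 in WT, by 1.24 ± 0.15, 0.83 ± 0.15 and 0.96 ± 0.15 on the log2 scale (adjusted p = 2.38e-06, 0.00012 and 3.58e-05, edgeR). KITLG, the stem cell factor, fell in Kashlid (-0.64 ± 0.10, 2.44e-05) and LBD (-0.62 ± 0.10, 3.79e-05). IL18, another precursor cut by caspase-1, rose in SUN2KO by 0.37 ± 0.08 (0.000681) and fell in Kashlid by 0.37 ± 0.08 (0.000853).

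Genes for the maturation and release of IL-1 split in direction. Of 12 listed, 8 were tested: 3 rose and 4 fell in SUN2KO, 3 rose and 4 fell in Kashlid, and 2 rose and 3 fell in LBD against WT, with medians of -0.30, -0.28 and 0.07. These are 87.5%, 87.5% and 62.5% of the 8, beside 36.7%, 44.5% and 40% of all tested genes. GSDMD, the pore former cut by inflammatory caspases, fell to 6.01 CPM in SUN2KO, 6.96 in Kashlid and 5.76 in LBD, against 12.1 in WT (-1.01 ± 0.17, -0.80 ± 0.16 and -1.07 ± 0.17, adjusted p = 6.43e-05, 0.000467 and 3.34e-05, edgeR). CASP1, which cuts IL1B and was picked out here after its values were seen, averaged 2.29 CPM in SUN2KO, 2.09 in Kashlid and 2.71 in LBD, against 4.96 in WT. CASP4, an inflammatory caspase that acts upstream of GSDMD, rose over WT in SUN2KO by 0.32 ± 0.06 (0.000595). It also rose in Kashlid (0.19 ± 0.07, 0.0206) and in LBD (0.19 ± 0.07, 0.0251). NLRP3 had 0 reads. NLRP1 was low, at 0.755 CPM in SUN2KO, 2.27 in Kashlid and 3.675 in LBD, against 2.78 in WT. It fell in SUN2KO against WT by 1.87 ± 0.33 (0.000144) and rose in LBD over SUN2KO by 2.27 ± 0.32 (3.3e-05).

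Among 16 tested genes of IL-1 receptor signalling, 3 rose and 1 fell in SUN2KO, 7 rose and 3 fell in Kashlid, and 5 rose and 2 fell in LBD against WT, or 25%, 62.5% and 43.8% beside 36.7%, 44.5% and 40% of all tested genes. IRAK2, a kinase-like adaptor of the receptor complex, averaged 35.0 CPM in Kashlid and 35.2 in LBD and rose over WT by 0.63 ± 0.13 in each (adjusted p = 0.00054 and 0.000587, edgeR), with 0.29 in Kashlid without Kashlid replicate 1. It also rose over SUN2KO, by 0.61 ± 0.13 in Kashlid (0.00214, and 0.102 without Kashlid replicate 1) and by 0.61 ± 0.13 in LBD (0.00246). PELI1, a ubiquitin ligase of the pathway, rose over WT in SUN2KO (0.46 ± 0.12, 0.00471, and 0.0934 without WT replicate 1), Kashlid (0.76 ± 0.12, 2.33e-05) and LBD (0.53 ± 0.12, 0.00132).

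Of 22 tested JAK-STAT genes, 6 rose and 4 fell in SUN2KO, 10 rose and 6 fell in Kashlid, and 9 rose and 4 fell in LBD against WT, or 45.5%, 72.7% and 59.1% beside 36.7%, 44.5% and 40% of all tested genes. SOCS3, a feedback inhibitor that STAT3 induces after IL6-family signals, averaged 76.1 CPM in SUN2KO, 106.9 in Kashlid and 79.3 in LBD, against 67.3 in WT. It rose in Kashlid over WT by 0.67 ± 0.09 (adjusted p = 3.44e-06, edgeR) and over SUN2KO by 0.49 ± 0.09 (0.000378, and 0.31 in size without Kashlid replicate 1). With the median of its 5 Mb window taken out the rise over WT was 0.34. It fell in LBD against Kashlid by 0.43 ± 0.09 (0.00875), a call lost without Kashlid replicate 1 (-0.25, 0.114) or LBD replicate 2 (0.132). PTPN6, a phosphatase that dampens JAK signalling, rose over WT in SUN2KO (0.67 ± 0.13, 0.000287), Kashlid (1.04 ± 0.12, 8.98e-07) and LBD (1.05 ± 0.12, 9.33e-07). With the window median taken out PTPN6 gave 0.42 in SUN2KO. JAK1 averaged 138.9 CPM in SUN2KO, 104.6 in Kashlid and 117.2 in LBD, against 157.4 in WT. It fell in Kashlid by 0.59 ± 0.05 (2.61e-08), or by 0.26 with its window median taken out, and in SUN2KO by 0.18 ± 0.05 (0.0112). STAT3 averaged 188.3 CPM in SUN2KO, 161.4 in Kashlid and 163.1 in LBD, against 190.8 in WT, and fell in Kashlid by 0.24 ± 0.05 (0.000729).

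The list of promoter factors, made up of transcription factors known to act at cytokine promoters and feedback genes of NF-kB, held the largest single changes of the 7 lists. All 27 were tested: 5 rose and 6 fell in SUN2KO, 9 rose and 3 fell in Kashlid, and 7 rose and 5 fell in LBD against WT, or 40.7%, 44.4% and 44.4%, close to the 36.7%, 44.5% and 40% of all tested genes. EGR1, an immediate-early factor, averaged 23.6 CPM in SUN2KO, 25.3 in Kashlid and 10.1 in LBD, against 2.95 in WT, with log2 fold changes of 3.0 ± 0.23 (adjusted p = 3.88e-09, edgeR), 3.11 ± 0.23 (1.21e-09) and 1.78 ± 0.26 (1.44e-05). TNFAIP3, an NF-kB target that shuts the pathway off, fell to 25.5 CPM in SUN2KO, 51.7 in Kashlid and 44.6 in LBD, against 112.2 in WT, by 2.14 ± 0.15, 1.12 ± 0.14 and 1.33 ± 0.14 (1.01e-09, 1.78e-06 and 2.62e-07). NFKBIA, another feedback gene of NF-kB in the list, went the other way. It averaged 72.2 CPM in SUN2KO, 70.8 in Kashlid and 68.3 in LBD, against 50.2 in WT. In SUN2KO it rose over WT by 0.53 ± 0.07 (adjusted p = 6.47e-06, edgeR). Over SUN2KO, TNFAIP3 rose by 1.02 ± 0.16 in Kashlid (8.65e-05, and 0.57 in size without Kashlid replicate 1) and by 0.81 ± 0.16 in LBD (0.0014, but 0.0516 without LBD replicate 2 and 0.059 with DESeq2).

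RELB, an NF-kB subunit, rose in LBD over WT by 0.85 ± 0.23 (adjusted p = 0.00631, edgeR, 0.208 without LBD replicate 2 and 0.0626 without WT replicate 2) and in Kashlid by 0.73 ± 0.24 (0.0161, 0.192 without Kashlid replicate 1, 0.109 without WT replicate 2 and 0.102 with the window median taken out). JUN, an AP-1 subunit, rose in Kashlid over SUN2KO by 0.46 ± 0.13 (0.018), a call lost without Kashlid replicate 1 (0.12, 0.52), SUN2KO replicate 1 (0.109) or 2 (0.133) and with DESeq2 (0.255), with 0.73 in size without Kashlid replicate 2.

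Cytokine transcripts with AU-rich ends are kept short-lived by decay factors. The list of 21 genes pools factors for the decay and for the stability of such transcripts, and all were tested. Against WT 5 rose and 4 fell in SUN2KO, 7 rose and 2 fell in Kashlid, and 5 rose and 4 fell in LBD. Each time this was 42.9% of the list, beside 36.7%, 44.5% and 40% of all tested genes. ZFP36, which recruits deadenylases to AU-rich ends, rose in LBD over WT by 0.70 ± 0.13 (adjusted p = 0.000152, edgeR) and over SUN2KO by 0.66 ± 0.13 (0.000876). In Kashlid it rose less, over WT by 0.42 ± 0.13 (0.0122) and over SUN2KO by 0.38 ± 0.13 (0.0452). The Kashlid call over WT was kept under 13 of 16 alternatives and that over SUN2KO under 4 of 16. ZC3H12A, an endonuclease that degrades IL6 transcripts, fell in SUN2KO against WT by 0.37 ± 0.10 (0.00591, but 0.0643 without SUN2KO replicate 1 and 0.0615 with the window median taken out). Over SUN2KO it rose by 0.40 ± 0.10 in Kashlid (0.00672, and 0.0878 without SUN2KO replicate 1) and by 0.53 ± 0.10 in LBD (0.000756).

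The medians of the lists were set beside the 0.00, 0.01 and 0.00 of all tested genes in SUN2KO, Kashlid and LBD over WT. They were -0.18, 0.01 and -0.05 for receptors, 0.04, -0.37 and -0.11 for related cytokines, and 0.06, 0.14 and 0.11 for IL-1 receptor signalling. For JAK-STAT signalling they were 0.07, 0.11 and 0.08, for promoter factors 0.06, 0.13 and 0.06, and for AU-rich decay and stability genes 0.04, -0.02 and 0.01. The largest distance was that of related cytokines in Kashlid.

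**Figure D4:**
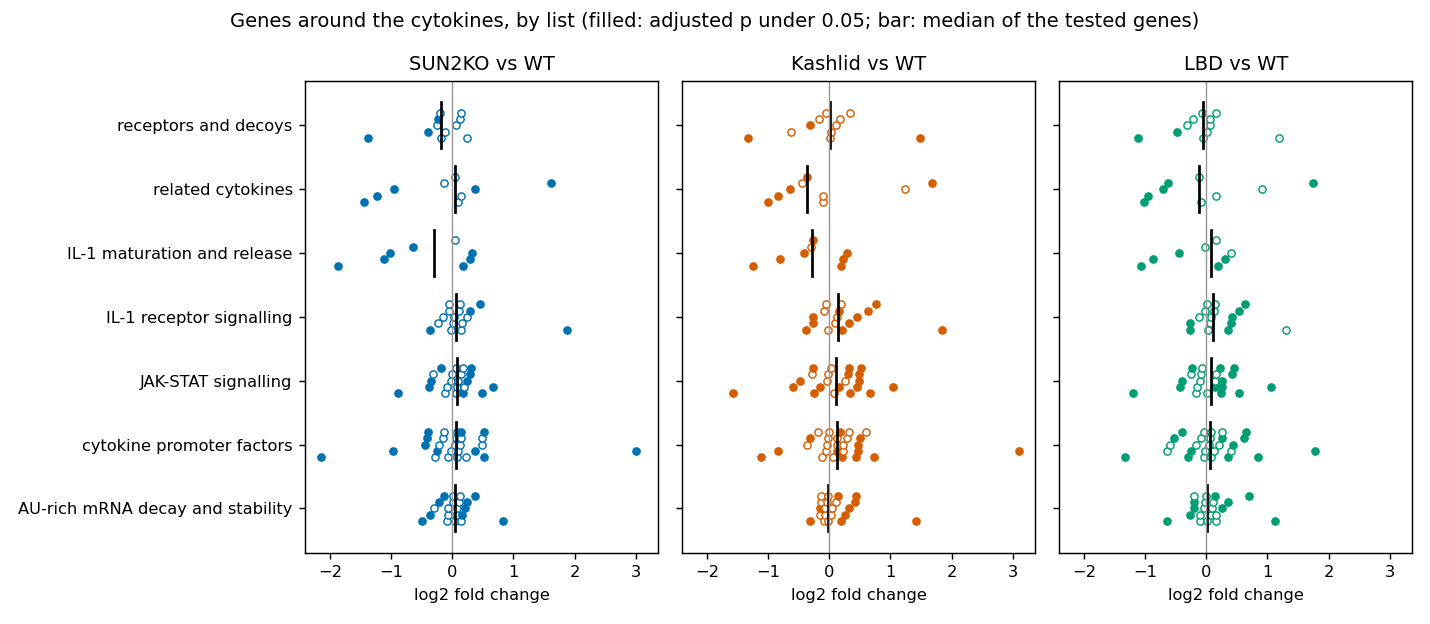
Log2 fold change over WT (x axis) of every tested gene of the 7 lists around the cytokines (y axis), in SUN2KO, Kashlid and LBD. Filled points have an adjusted p under 0.05 and bars are medians. The list medians over WT lie between -0.37 and 0.14, and EGR1 at 3.0 and 3.11 is the farthest point.

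The genes around each cytokine were examined to set its change beside that of its stretch of chromosome. How the medians of these windows compare with those of other windows is not given here. In the 5 Mb window that holds IL6 (chromosome 7, 20 to 25 Mb, 21 tested genes) the median log2 fold change over WT was -0.44 in SUN2KO, -0.26 in Kashlid and -0.35 in LBD. Downstream of IL6, TOMM7 gave -0.47, -0.33 and -0.60 and FAM126A -0.39, -0.26 and -0.38 in SUN2KO, Kashlid and LBD over WT. Upstream, LOC100506178, at a mean of 0.609 CPM, gave -0.51, 0.43 and 0.22 in the same order, with the signs of IL6. With the window median taken out, IL6 stood at -0.14 in SUN2KO (adjusted p = 0.851, edgeR), 1.86 in Kashlid, and 1.04 in LBD (0.0268). So in SUN2KO the IL6 value lay close to that of its window, and in the truncation groups it lay above it.

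The window of IL11 (chromosome 19, 55 to 60 Mb, 81 genes) ran the other way, with medians of 0.20, 0.24 and 0.20 in SUN2KO, Kashlid and LBD. With it taken out, IL11 gave 0.45 in Kashlid (adjusted p = 0.0518, edgeR) and 0.27 in LBD (0.29), both lost as calls. Of the tested genes nearest to IL11, COX6B2 had the signs of IL11, at -0.47, 1.32 and 1.35 in SUN2KO, Kashlid and LBD over WT. SUV420H2, TMEM190 and RPL28 lay above 0 in each, and TMEM238 below 0 in each. The window of CSF1 (chromosome 1, 110 to 115 Mb, 51 genes) had medians of 0.16, 0.21 and 0.22, opposite to CSF1 itself. The window shared by IL1A and IL1B gave 0.07, 0.07 and 0.02, and that of LIF 0.02, 0.07 and 0.11, which left LIF in LBD at 0.12 (0.354). Cytokine genes next to the members were at or near 0 reads in total: IL37 had 4 reads, IL36G 1, IL36A 0 and OSM, beside LIF, 3.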

How the data were processed

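The 8 libraries were total RNA of MDA-MB-231 cells. Per the submitters' processing notes the authors used Trim Galore, STAR 2.7.1a, bedtools 2.24.0, HTSeq and DESeq2 with the hg19 build. For the annotation version and the strand setting of the counting: not given in the sources used here. The counts are the deposited whole reads per gene, and 0 entries named no gene. The authors' 3 deposited tables of comparisons with WT carry no column names. The authors made the deposited log2 fold changes with DESeq2, per the submitters' processing notes, and the column was identified by r = 0.999 with recomputed values. The deposited p-values and adjusted p-values were made by the authors with DESeq2 too, per the same notes, and 12 columns of per-library values in these tables were not used.

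Tests used edgeR 4.0.16 under R 4.3.3 (TMM scaling, filterByExpr, and a two-sided quasi-likelihood fit of the 4 group means on the 8 libraries, 4 residual degrees of freedom, Benjamini-Hochberg adjusted p under 0.05 over 14016 genes). CPM use the TMM factors, SD is over 2 libraries and SE comes from the fit. CPM per kb divide by the exon union of each gene. Ratios of low counts have exact 95% intervals. Ratios between replicates add 0.5 CPM before ranking. The steps were also tested on simulated data. The members and the gene lists were chosen with earlier results of these data known. All members were named, and from each list up to 3 genes per comparison that passed at a mean of at least 5 CPM, by size of the log2 fold change, from which examples are given. Where none passed, the gene with the smallest p was eligible. Alternatives were DESeq2 1.42.0, scaling by median-ratio factors or by library size only, testing without a filter or with a stricter one (5 CPM in 2 libraries), the 2 groups alone, a replicate block, subtraction of the median of 5 Mb windows with at least 15 genes, and leaving out each library. The same settings for list genes and SUN2 were chosen after seeing the data.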

Additional observations from a re-analysis of the deposited data

How the results depend on the processing

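Over the alternatives, 492 of the recomputed log2 fold changes of the 6 tested members kept their direction and their side of the threshold, 45 lost a call, 13 gained one and 9 turned in direction, none of them called before or after. Leaving out 1 library at a time, LIF in Kashlid over WT ran between -0.0169 and 0.28, CSF1 in Kashlid over SUN2KO between -0.239 and 0.256 (-0.0231 with the window offset), and CSF1 in LBD over SUN2KO between -0.00476 and 0.525. In LBD against Kashlid, IL6 ran between -1.55 and 0.275, IL11 between -0.583 and 0.245, LIF between -0.0431 and 0.254 and CSF1 between -0.0354 and 0.526. For list genes and SUN2, 1540 kept both, 124 lost a call, 8 gained one and 4 turned, all under the window offset: CHUK at -0.0279 in SUN2KO over WT, and TIAL1 at -0.000605 in SUN2KO, -0.0114 in Kashlid and -0.0728 in LBD over WT. The cause was not tested.

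Members called in LBD against WT numbered 5, but 2 with the stricter filter, which leaves IL1A and IL1B untested, 1 with DESeq2, 6 with 2 groups only and 7 with no filter, where CSF2 is tested too. In LBD against SUN2KO they were 4, but 2 with DESeq2, where 1246 of all genes were called instead of 1890. In LBD against Kashlid they were 0, but 1 with no filter, and genes called there were 408, but 775 with no filter and 129 with 2 groups only. Leaving out 1 library at a time gave 2 to 4 members called in SUN2KO against WT, 2 to 5 in Kashlid against WT, 1 to 6 in LBD against WT, 3 to 4 in Kashlid against SUN2KO, 2 to 4 in LBD against SUN2KO and 0 to 2 in LBD against Kashlid. Genes called then ran between 3569 and 5694 in SUN2KO against WT, 1186 and 2469 in Kashlid against SUN2KO, 884 and 2386 in LBD against SUN2KO, and 129 and 839 in LBD against Kashlid. With library size only, the higher calls were 1574 of 2570 in Kashlid against SUN2KO and 1128 of 1846 in LBD against SUN2KO, against 1250 of 2529 and 938 of 1890 with TMM.

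Deviations of same-numbered replicates were nearly uncorrelated between groups (r between -0.00742 and 0.0844), so no strong shared effect of the number was seen. These values cannot show whether same-numbered libraries were prepared together, and the labels do not say. With the number as a replicate block, members called stayed at 3, 4, 5, 4, 4 and 0 in the 6 comparisons, and genes called were 5412, 6457 and 5798 in SUN2KO, Kashlid and LBD against WT, 2787 and 2134 in Kashlid and LBD against SUN2KO, and 581 in LBD against Kashlid. With 2 libraries a group, depth limited IL1A and IL1B, at 12 to 63 counts per library, and CSF2, CSF3 and IL24, at 0 to 8.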

Other observations

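Markers of other cell types also differed between the groups, and not all in 1 direction. LUM, a matrix proteoglycan gene of fibroblasts, averaged 27.4 CPM in SUN2KO, 35.6 in Kashlid and 37.9 in LBD, against 90.6 in WT, and DCN, another such gene, averaged 6.68 CPM in SUN2KO, 15.3 in Kashlid and 15.6 in LBD, against 12.2 in WT. PDGFRA had 0 reads and THY1 averaged 0.0652 CPM. The 4 fibroblast markers summed to 32 to 36.3 CPM in SUN2KO, 50.3 to 51.3 in Kashlid and 53.4 to 53.7 in LBD, against 99.7 to 106 in WT. CDH5, an endothelial cadherin, averaged 6.74 CPM in SUN2KO, 1.11 in Kashlid and 1.78 in LBD, against 2.15 in WT, and PECAM1 1.37 CPM in SUN2KO, 1.43 in Kashlid and 1.73 in LBD, against 0.669 in WT. LIN28B, a gene of HEK293-type cells, averaged 0.754 CPM in SUN2KO, 0.496 in Kashlid and 0.675 in LBD, against 0 reads in WT, and the 5 markers of that type summed to 4.8 to 6.44 CPM in the modified groups, against 9.08 to 9.33 in WT. CD3D, CD3E and CD2 of T and NK cells had 0 reads. The part of these levels in the cytokine values was not tested.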
